A study of Mus musculus with 19 samples.

Results

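Semaphorins, ephrins, Slits and netrins are the classical families of axon guidance ligands, and plexins, Eph receptors, Robo receptors and Unc5 receptors are the receptors they bind. The genes described here were taken by family name, Sema3 to Sema7, Plxna to Plxnd, Epha, Ephb, Efna, Efnb, Slit1 to Slit3, Robo1 to Robo4, Ntn1 to Ntn5 and Unc5a to Unc5d. Of 18193 genes measured, 65 belonged to these families, 35 ligands and 30 receptors. Ephb2 fits the rule by name but is not among them, because no probe set carried that symbol alone. The rule uses names and no measured level, although it was chosen with earlier results of these data known. All 65 entered every main test, because no filter on low values was applied there.

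They were measured on Affymetrix mouse arrays in cells that a flow cytometer sorted from fore and hind limbs of mice at postnatal day 3. The genotype label reads wild type, the collection protocol names GFP-labelled mice, and the limbs came from a pooled litter. Every population had passed a gate that removed cells with CD45, Ter119 or Tie2 and kept cells with integrin alpha V. The antigens Thy, 6C3 and CD105 then gave 6 populations with 3 arrays each. These were Thy+ cells without 6C3 (Thy+6C3-CD105+ and, lacking CD105, Thy+6C3-CD105-), 6C3+ cells without Thy (Thy-6C3+CD105+ and, lacking CD105, Thy-6C3+CD105-) and cells with neither (Thy-6C3-CD105+ and, lacking CD105, Thy-6C3-CD105-). No agent was given to any group, and the same dissociation, gate and amplification were shared by all of them. Nothing in the labels says that the replicates of a population came from separate litters, so p-values measure only the spread between these arrays, which may be technical. The study's question, as the labels state the design, was how populations that differ in these antigens differ in expression. A comparison below is called a step and subtracts the antigen-negative from the antigen-positive population, with the other antigens held the same. Levels are log2 values after quantile normalization, changes are log2 differences with the standard error (SE) of the fit, and adjusted p values come from limma over all 18193 genes. A gene was called at an adjusted p under 0.05. In sorted bulk cells, fewer cells of a type and less RNA per cell cannot be told apart.

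As background, guidance ligands steer migrating cells and growing axons by attraction or repulsion, and the same molecules act outside the nervous system in vessels, cartilage and bone. Class 3 semaphorins are secreted and bind complexes of a neuropilin and a plexin, Slits bind Robo receptors, netrins bind Dcc, neogenin and the Unc5 receptors, and ephrins are membrane ligands of Eph receptors that signal at cell contacts. In the skeleton, semaphorins, ephrins, Slits and netrins are known to take part in the exchange between bone-forming and bone-resorbing cells and in the ingrowth of nerves and vessels.

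The libraries set limits on these results. Over all genes, Thy+6C3-CD105- replicate 3 correlated with its replicates at r = 0.931 and 0.941, whereas every other pair of replicates had r of at least 0.956. Its Eng level, the gene of CD105, was 8.58, where its replicates had 7.51 and 7.61, so the array labelled CD105- goes against its label in that gene. Eng was 8.17 to 8.83 on the 9 CD105+ arrays and 6.65 to 7.82 on the other 8 CD105- arrays. No CD105 step called Eng (limma adjusted p of at least 0.254), with changes of 1.45 in Thy-6C3-, 0.59 in Thy+6C3- and 1.26 in Thy-6C3+ cells. Calls of named genes in the steps that use Thy+6C3-CD105- cells are therefore given with and without this array, which is called the array in doubt. The titles of Thy-6C3+CD105- replicates 2 and 3 name Thy+, but their Thy1 levels were 5.78 and 5.95, against 9.99 to 10.38 in Thy+6C3-CD105- cells, and they were grouped as Thy-. Spike-in poly-A controls split the arrays into a set of 11 with high and a set of 7 with low signal.

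Among the 6 populations, 13 of the 65 guidance genes differed by limma's moderated F-test, beside 10.1% of all genes. The 13 were the ligands Sema3b, Ntn4, Slit2, Sema5b, Ntn1, Slit3, Efna5, Sema3c, Sema3g and Sema5a and the receptors Unc5c, Unc5d and Plxnc1. Of the ligands 10 of 35 were called and of the receptors 3 of 30, and the difference between these shares was not tested. Another 10 genes were called in a single step only, and 42 were called in no comparison. The population means of these 42 genes spanned between 0.16 and 1.75 on the log2 scale. In 23 of the 65 genes no population mean reached the median gene mean of 6.76, 9 of them ligands and 14 receptors.

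**Figure D1:**
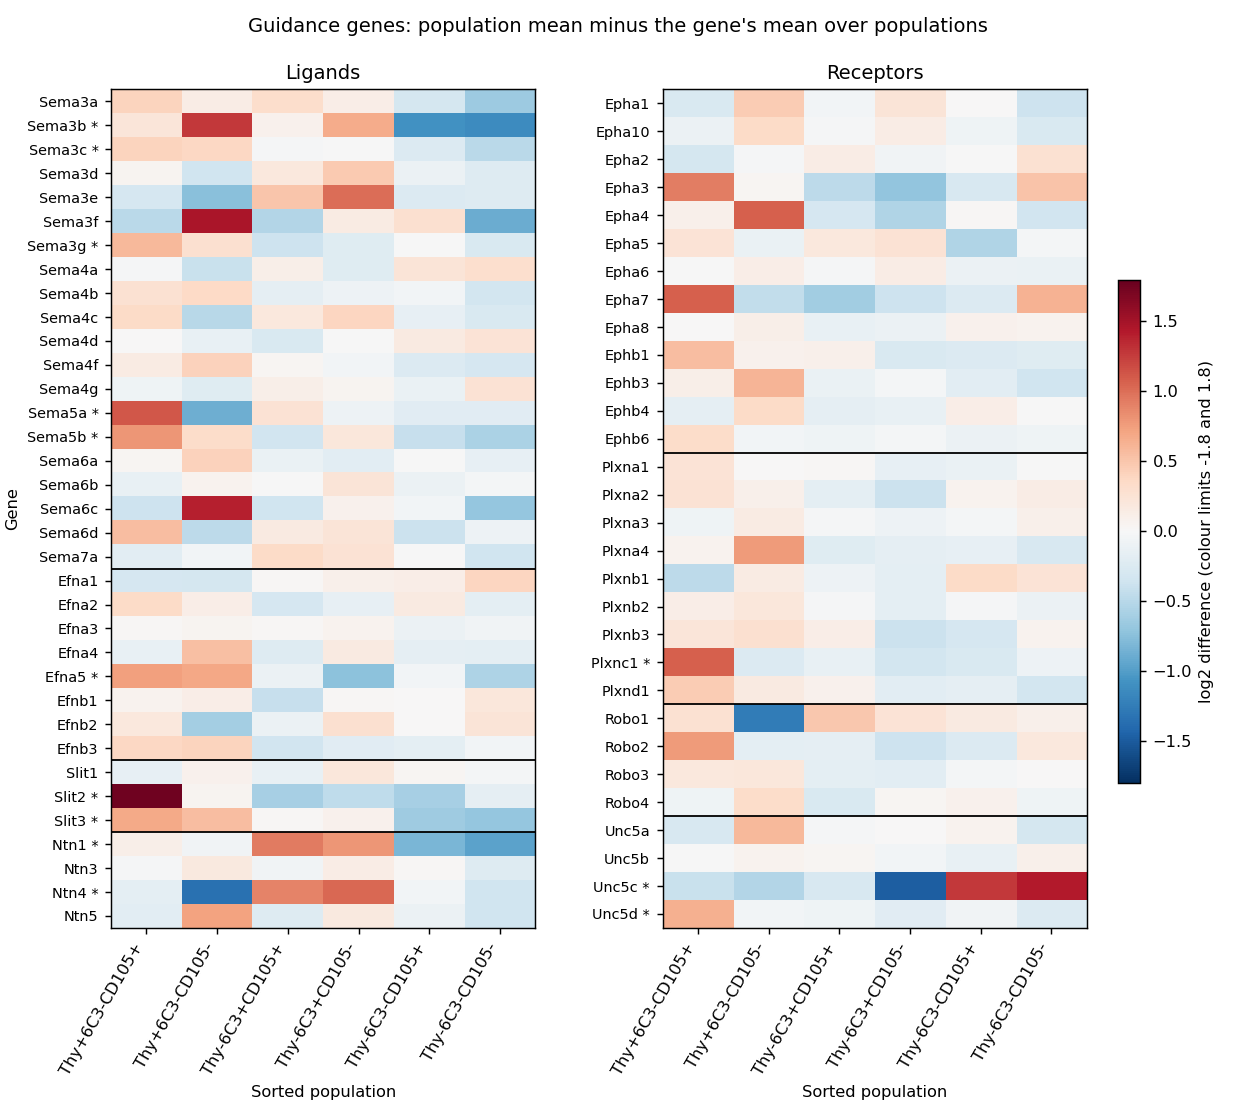
Each cell is the mean log2 level of a guidance gene in a population (3 arrays) minus that gene's mean over the 6 populations, ligands on the left and receptors on the right, with lines between families and stars on the 13 genes called by the F-test. Slit2 stands out in Thy+6C3-CD105+ cells, Sema3b is low and Unc5c is high in both Thy-6C3- populations, and Ntn1 and Ntn4 are highest in the 6C3+ populations.

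The steps differed in how many guidance genes were called. In the Thy step among 6C3-CD105+ cells 7 of 65 were called, 6 higher and 1 lower in Thy+ cells, beside 6.66% of all genes (4.03% higher and 2.63% lower). In the Thy step among 6C3-CD105- cells 17 were called, 13 higher and 4 lower, beside 18% of all genes (10.5% higher and 7.45% lower). Without Thy+6C3-CD105- replicate 3 that count was 6, with 1767 called among all genes. The 6C3 step called 2 guidance genes in Thy-CD105+ cells, both higher in 6C3+ cells, beside 1.36% of all genes (0.561% higher and 0.797% lower). In Thy-CD105- cells it called 4, 3 higher and 1 lower, beside 2.74% of all genes (1.24% higher and 1.5% lower). The CD105 step in Thy+6C3- cells called 5, 4 higher and 1 lower in CD105+ cells, beside 1.02% of all genes (0.824% higher and 0.192% lower), and 1 without the array in doubt.

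No guidance gene was called by limma for CD105 among Thy-6C3- cells (0.0055% of all genes called) or among Thy-6C3+ cells (0% called). At an unadjusted p under 0.05 the counts were 0 and 3, and none of the alternative fits that could be run called any. The median change of the 65 genes lay near that of all genes in each step. For the Thy step it was 0.14 beside -0.02 for all genes among 6C3-CD105+ cells and 0.21 beside 0.13 among 6C3-CD105- cells. In the other 5 steps both medians were between -0.08 and 0.12. The median over all genes in the Thy step of 6C3-CD105- cells moved to -0.05 when arrays were given a common median only. Guidance calls were then 7 higher and 6 lower, and 11 higher and 5 lower with the values as deposited. The CD105 step of Thy+6C3- cells had an all-gene median of -0.08, and of 0.15 with a common median only. The 4 higher and 1 lower calls became 5 higher and 0 lower there, and 4 higher and 0 lower as deposited. In the 6C3 step of Thy-CD105+ cells the deposited values gave 2 higher and 1 lower. In the 6C3 step of Thy-CD105- cells a common median gave 2 higher and 1 lower. The shares of all genes called in these settings are not given here, so the counts show no move particular to guidance genes.

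**Figure D2:**
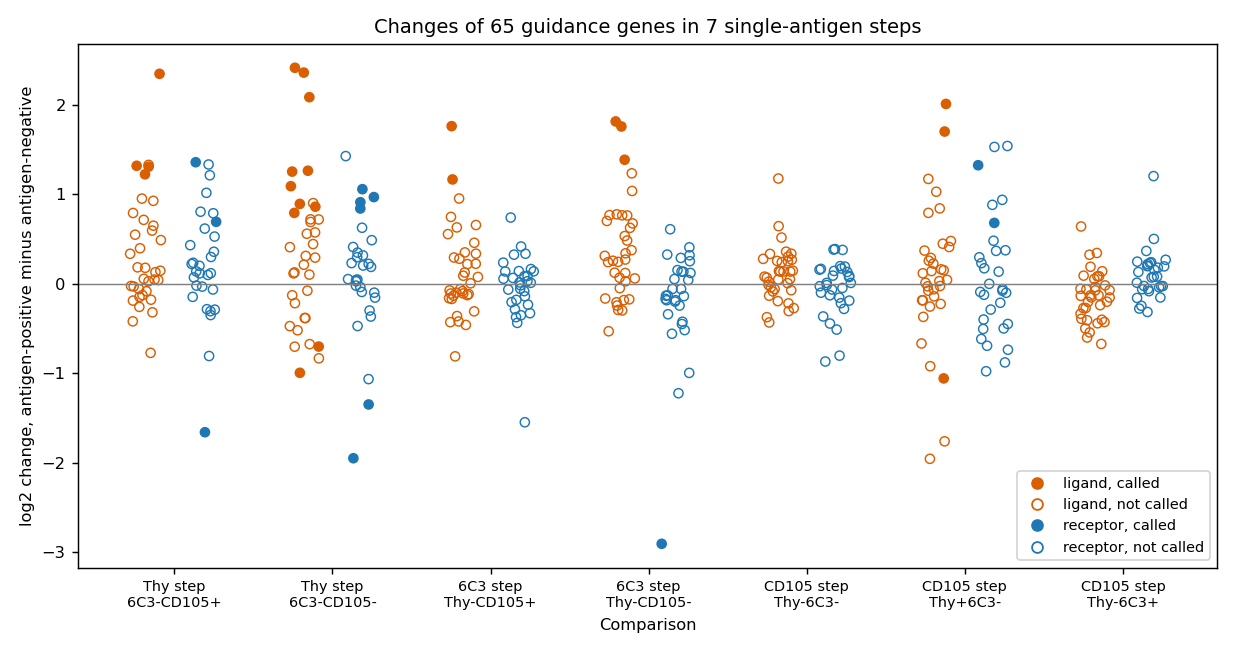
Each point is a guidance gene's log2 change (antigen-positive minus antigen-negative population) in 1 of the 7 steps, ligands in orange and receptors in blue, filled where limma called it at an adjusted p under 0.05. Called genes are mostly above 0 in the Thy steps, Unc5c is the lowest point at -2.91 in the 6C3 step of Thy-CD105- cells, and 2 steps of CD105 hold no filled point.

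Sema3b, a secreted class 3 semaphorin, was the guidance gene with the smallest adjusted p and was low wherever both Thy and 6C3 were absent. It had 8.52, 8.95 and 9.06 in Thy+6C3-CD105+ cells and 9.40, 9.89 and 10.41 in Thy+6C3-CD105- cells. The 6C3+ arrays had 8.52, 8.74 and 8.83 with CD105 and 9.27, 9.56 and 9.07 without it. The Thy-6C3- arrays had 7.56, 7.72 and 7.33 with CD105 and 7.38, 7.63 and 7.45 without it, so that every Thy+ and every 6C3+ array lay above every Thy-6C3- array. The F-test gave an adjusted p of 4.11e-06. Sema3b rose in the Thy step, by 1.31 ± 0.24 among CD105+ cells (limma adjusted p = 0.00142) and by 2.41 ± 0.24 among CD105- cells (limma adjusted p = 2.73e-06). In the 6C3 step it rose by 1.16 ± 0.24 among CD105+ cells (limma adjusted p = 0.016) and by 1.81 ± 0.24 among CD105- cells (limma adjusted p = 0.000172). Without the array in doubt the Thy change among CD105- cells was 2.16 (limma adjusted p = 6.19e-06). In Thy+6C3- cells it was lower with CD105, by -1.06 ± 0.24 (limma adjusted p = 0.0385), a call lost without 11 of 18 arrays in turn, among them the array in doubt (-0.80, limma adjusted p = 0.175). The 6C3 call among CD105+ cells was lost without Thy-6C3-CD105+ replicate 1 or 3 or Thy-6C3+CD105+ replicate 2 or 3, with changes of 1.06 to 1.18 and limma adjusted p of 0.0602 to 0.108. The remaining probe sets of Sema3b changed in the same direction in all 4 Thy and 6C3 steps, by 0.47 to 1.74. With the mean of the probe sets the 6C3 change among CD105+ cells was 0.71 and was not called (limma adjusted p = 0.15). The CD105 change of Sema3b was -0.68 as deposited and -0.53 with a common median only, neither called (limma adjusted p = 0.113 and 0.161).

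Sema3c, another secreted class 3 semaphorin, had 11.48, 11.76 and 11.76 in Thy+6C3-CD105+ cells and 11.40, 12.03 and 11.48 in Thy+6C3-CD105- cells. The 6C3+ arrays had 11.30, 11.49 and 10.93 with CD105 and 11.23, 11.10 and 11.44 without it. The Thy-6C3- arrays had 11.25, 10.80 and 11.01 with CD105 and 10.96, 10.59 and 10.79 without it. Both Thy+ populations thus lay above both Thy-6C3- populations on every array. The change in the Thy step was 0.86 ± 0.19 among CD105- cells (limma adjusted p = 0.00662) and 0.94 without the array in doubt (limma adjusted p = 0.00826). As deposited it was 0.49 (limma adjusted p = 0.138) and with a common median only 0.35 (limma adjusted p = 0.356). The F-test call of Sema3c was lost in both settings (limma adjusted p = 0.157 and 0.24) and without Thy+6C3-CD105+ replicate 2 or 3 or Thy-6C3-CD105- replicate 2 (0.0596 to 0.0659).

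Sema3f, a class 3 semaphorin best known for binding neuropilin 2, was high and even in Thy+6C3-CD105- cells and variable elsewhere. It had 11.96, 12.26 and 12.30 in Thy+6C3-CD105- cells and 9.78, 10.63 and 9.03 in Thy-6C3-CD105- cells, which do not overlap. In Thy+6C3-CD105+ cells it had 11.05, 9.90 and 9.69. In Thy-6C3+CD105- cells the 3 arrays spread from 9.57 to 12.60, and in Thy-6C3-CD105+ cells from 9.66 to 12.17. The change in the Thy step among CD105- cells was 2.36 ± 0.68 (limma adjusted p = 0.0248). That call was lost without the array in doubt (2.29, limma adjusted p = 0.0723), without Thy-6C3-CD105- replicate 1 (2.34, 0.0636) and without its replicate 3 (1.96, 0.113). The remaining probe sets of Sema3f rose in the same step by 1.93 and 1.21 (limma adjusted p over all probe sets = 0.00205 and 0.0133).

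Sema6c, a transmembrane semaphorin, had 10.19, 10.44 and 10.96 in Thy+6C3-CD105- cells and 8.45, 8.76 and 8.13 in Thy-6C3-CD105- cells. Its change of 2.08 ± 0.49 in that Thy step (limma adjusted p = 0.00864) was 1.87 without the array in doubt (limma adjusted p = 0.0393). Among CD105+ cells Sema6c had 9.23, 8.59 and 8.49 in Thy+ cells and 8.18, 9.17 and 9.91 in Thy- cells, which overlap. Sema3a, the founding class 3 semaphorin, changed by 0.79 ± 0.26 in the Thy step of CD105- cells (limma adjusted p = 0.0436), with population means of 8.49 ± 0.30 in Thy+ and 7.70 ± 0.55 in Thy- cells (SD, n = 3 each). That call was lost when any of 13 of 18 arrays was left out, the array in doubt among them (0.90, limma adjusted p = 0.052), with changes between 0.51 and 0.90 and limma adjusted p of 0.0517 to 0.2. The Sema3a change was 0.45 as deposited, 0.31 with a common median only and 0.09 with the mean of the probe sets, none called (limma adjusted p = 0.275, 0.465 and 0.787). Sema4a, a transmembrane semaphorin also known from immune cells, fell by 0.70 on the log2 scale in the same step (limma adjusted p = 0.0196), with means of 5.98 ± 0.03 in Thy+ and 6.68 ± 0.20 in Thy- cells, below the median gene. The Sema4a call was lost without the array in doubt (-0.69, limma adjusted p = 0.0503) and without Thy-6C3-CD105- replicate 1 (-0.59, limma adjusted p = 0.0835).

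Class 5 semaphorins are transmembrane proteins with thrombospondin repeats. Sema5a had 8.99, 8.69 and 9.08 in Thy+6C3-CD105+ cells and 7.42, 7.66 and 5.65 in Thy+6C3-CD105- cells. Each CD105+ array lay above each CD105- array, and the lowest value belonged to the array in doubt. The change of Sema5a was 2.01 ± 0.42 (limma adjusted p = 0.0244) with all arrays and 1.38 without that array (limma adjusted p = 0.0775). It was also not called without any 1 of the Thy+6C3-CD105+ arrays, at 1.93 to 2.12 (limma adjusted p = 0.0628 to 0.137). On a further probe set of Sema5a the same step gave 1.93 (limma adjusted p over all probe sets = 0.0512). The F-test call of Sema5a, at 0.0478, was lost without 12 of 18 arrays in turn, with limma adjusted p of up to 0.161, and also with arrays grouped by title (0.0679) or eBayes without a trend (0.0533).

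Sema5b rose in both Thy steps. It had 8.37, 7.57 and 7.60 in Thy+6C3-CD105+ cells and 6.11, 6.83 and 6.94 in Thy-6C3-CD105+ cells, a difference of 1.22 ± 0.26 (limma adjusted p = 0.00584). Among CD105- cells it had 7.36, 7.19 and 7.57 in Thy+ and 6.37, 6.87 and 6.21 in Thy- cells, a difference of 0.89 ± 0.26 (limma adjusted p = 0.0263). The groups did not overlap in either step. The second call was lost without the array in doubt (0.79, limma adjusted p = 0.0893) and without Thy-6C3-CD105- replicate 1 (0.83, 0.0811) or 3 (0.75, 0.111). As deposited it was 0.73 and with a common median only 0.59, neither called (limma adjusted p = 0.05004 and 0.0805). Sema5b had means of 6.70 ± 0.09 in 6C3+ cells with CD105 and 7.25 ± 0.13 without it (SD, n = 3).

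Sema3g was called by the F-test alone (limma adjusted p = 0.0372), at levels below the median gene. It had 5.77, 5.66 and 5.50 in Thy+6C3-CD105+ cells and 5.51, 5.72 and 4.84 in Thy+6C3-CD105- cells. In the other 4 populations its means were 4.69 to 5.05. The call was lost without 10 of 18 arrays in turn, with limma adjusted p of up to 0.111, and with arrays grouped by title (0.0784). Without the array in doubt Sema3g was called in the Thy step among CD105- cells (0.83, limma adjusted p = 0.0202), where it changed by 0.57 with all arrays. The remaining 11 semaphorins were called in no comparison, and their population means spanned 0.35 to 1.75. The widest of them was Sema3e, a ligand of plexin D1, with 9.62 ± 0.41 in Thy-6C3+CD105+ cells and 10.12 ± 0.35 in Thy-6C3+CD105- cells, 8.36 to 8.81 as means of the Thy+ populations, and 8.87 ± 0.37 and 8.88 ± 0.32 in the Thy-6C3- populations with and without CD105 (SD, n = 3). The 6C3 step of Sema3e among CD105- cells was 1.23 ± 0.42 (limma adjusted p = 0.159).

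Slits are large secreted ligands of Robo receptors, and 2 of the 3 differed between populations. Slit2 was high in a single population. It had 9.02, 8.80 and 8.70 in Thy+6C3-CD105+ cells, 7.87, 7.54 and 6.02 in Thy+6C3-CD105- cells, and no value above 7.06 on the 12 arrays of the other 4 populations. All 3 Thy+6C3-CD105+ arrays thus lay above the other 15 neonatal arrays. The Thy step among CD105+ cells was 2.34 ± 0.37 (limma adjusted p = 0.000446), against Thy-6C3-CD105+ arrays of 6.51, 7.06 and 5.92. This call held in every alternative, but the size of the change ranged from 1.14 to 2.62 across them. The Thy step of Slit2 among CD105- cells was 0.21 ± 0.37 (limma adjusted p = 0.708), or 0.77 without the array in doubt (limma adjusted p = 0.0979). The CD105 step in Thy+6C3- cells was 1.70 ± 0.37 (limma adjusted p = 0.0339). That call was lost without 6 of 18 arrays in turn, namely the array in doubt (1.14, limma adjusted p = 0.118), each Thy+6C3-CD105+ array (1.61 to 1.77, 0.077 to 0.136), Thy-6C3-CD105- replicate 2 (0.0513) and Thy-6C3+CD105+ replicate 1 (0.0502). It was also lost over the brighter genes alone (0.0601). The test of whether the Thy change of Slit2 differed between CD105+ and CD105- cells had a limma adjusted p of 0.117, and passed as deposited, with a common median only and without Thy+6C3-CD105- replicate 1.

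Slit3 rose in both Thy steps. It had 8.77, 7.67 and 7.71 in Thy+6C3-CD105+ cells and 6.35, 6.91 and 6.94 in Thy-6C3-CD105+ cells, a difference of 1.32 ± 0.30 (limma adjusted p = 0.0107). Among CD105- cells it had 8.38, 7.70 and 7.73 in Thy+ cells and 6.40, 6.65 and 6.99 in Thy- cells, a difference of 1.25 ± 0.30 (limma adjusted p = 0.0106). Neither pair of groups overlapped, and the 6C3+ arrays, at 7.03 to 7.75, lay above all Thy-6C3- arrays. The second call of Slit3 held in every alternative, at 1.35 without the array in doubt (limma adjusted p = 0.0162). The first was lost without Thy+6C3-CD105+ replicate 1 (0.96, limma adjusted p = 0.0711) and without Thy-6C3-CD105+ replicate 1 (1.12, 0.0679). Slit1, the remaining member, had population means of 5.82 to 6.17, below the median gene, and was called nowhere.

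The promoter windows of Slit2 and Slit3 are shown because both genes rose in the Thy step among CD105+ cells, and that of Unc5c because it fell in the same step. Each runs from 250 bases before to 50 bases after the start of the gene in RefSeq on build GRCm38.p6, on the plus strand, in lower case with motif matches in capitals. They lie at chr5:47982905-47983204 for Slit2, chr11:35121206-35121505 for Slit3 and chr3:141465314-141465613 for Unc5c. Motifs searched on both strands were the GC box GGGCGG, present in 35.7% of 32851 RefSeq promoter windows, the Runx core TGTGGT, present in 16.8%, and the Sox core ATTGTT, present in 10.7%.
Slit2: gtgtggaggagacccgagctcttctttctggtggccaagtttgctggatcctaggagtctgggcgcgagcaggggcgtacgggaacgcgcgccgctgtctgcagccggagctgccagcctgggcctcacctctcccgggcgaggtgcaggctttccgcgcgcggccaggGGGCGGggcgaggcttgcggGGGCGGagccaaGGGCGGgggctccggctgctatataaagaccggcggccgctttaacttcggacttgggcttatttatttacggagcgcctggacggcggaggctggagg
Slit3: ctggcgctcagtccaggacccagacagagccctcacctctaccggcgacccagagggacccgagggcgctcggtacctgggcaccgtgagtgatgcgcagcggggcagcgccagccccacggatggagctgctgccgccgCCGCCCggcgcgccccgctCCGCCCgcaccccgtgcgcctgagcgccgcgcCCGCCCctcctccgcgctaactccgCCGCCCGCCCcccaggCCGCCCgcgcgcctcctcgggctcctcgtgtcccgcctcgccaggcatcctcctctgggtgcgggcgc
Unc5c: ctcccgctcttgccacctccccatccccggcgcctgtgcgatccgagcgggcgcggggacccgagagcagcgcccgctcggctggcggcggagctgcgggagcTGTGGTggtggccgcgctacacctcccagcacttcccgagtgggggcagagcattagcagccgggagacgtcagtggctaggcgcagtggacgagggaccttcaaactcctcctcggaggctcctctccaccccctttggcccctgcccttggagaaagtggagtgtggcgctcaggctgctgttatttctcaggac
The Slit2 window held 3 GC boxes and had 68.0% G and C, and the Slit3 window held 6 and had 78.3%. The Unc5c window held 1 Runx core and had 68.3% G and C. No Sox core match was found in these 3 windows, which says nothing of sites outside them.

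Netrins are laminin-related ligands, and Ntn1 and Ntn4 were both highest in the 6C3+ populations. Ntn1, the ligand of Dcc and Unc5 receptors, had 8.74, 9.32 and 8.98 in Thy-6C3+CD105+ cells and 7.05, 7.61 and 7.11 in Thy-6C3-CD105+ cells. Among CD105- cells it had 8.36, 9.15 and 9.12 in 6C3+ and 7.80, 6.92 and 6.65 in 6C3- cells, so the groups were apart in both steps. The 6C3 changes of Ntn1 were 1.76 ± 0.40 (limma adjusted p = 0.032) and 1.75 ± 0.40 (limma adjusted p = 0.02). In the Thy+ populations Ntn1 was spread, with 8.23, 7.74 and 8.58 with CD105 and 7.01, 8.19 and 8.86 without it. The 6C3 call among CD105+ cells was lost without Thy-6C3-CD105+ replicate 1 or 3 or any Thy-6C3+CD105+ array, at 1.61 to 1.90 (limma adjusted p = 0.0678 to 0.182). That among CD105- cells was lost without replicate 2 or 3 of either population, at 1.52 to 1.65 (limma adjusted p = 0.0742 to 0.114). A second, dimmer probe set of Ntn1 changed by -0.29 and 0.55 in these steps, and neither change was called. With the mean of the probe sets Ntn1 changed by 0.73 and 1.15 and was called in neither (limma adjusted p = 0.519 and 0.0646), and its F-test call was lost (0.0803). With arrays grouped by title the change among CD105- cells was 1.24 (limma adjusted p = 0.6).

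Ntn4, a netrin of basement membranes that binds laminins, had 8.59, 8.97 and 8.69 in Thy-6C3+CD105- cells and 7.60, 7.09 and 7.41 in Thy-6C3-CD105- cells, a difference of 1.38 ± 0.30 (limma adjusted p = 0.0155). This call was lost without replicate 2 of Thy-6C3+CD105- (1.27, limma adjusted p = 0.0649) or of Thy-6C3-CD105- (1.24, 0.0714). Among CD105+ cells Ntn4 had 8.87, 8.77 and 8.22 in 6C3+ and 8.17, 7.47 and 7.37 in 6C3- cells, which did not overlap but did not pass (0.95 ± 0.30, limma adjusted p = 0.199). Ntn4 had 7.19, 7.90 and 7.53 in Thy+6C3-CD105+ cells and its lowest mean in Thy+6C3-CD105- cells, with 6.52, 6.89 and 5.70. It fell with Thy among CD105- cells, by 1.0 on the log2 scale (limma adjusted p = 0.0315). That call was lost without the array in doubt (-0.66, limma adjusted p = 0.152) or Thy-6C3-CD105- replicate 1 (-0.88, 0.105) or 3 (-0.97, 0.091). The second probe set of Ntn4, with a mean of 5.31, changed by 0.34 in that Thy step and by -0.21 and 0.31 in the 6C3 steps, none of them called. With the mean of the probe sets Ntn4 changed by -0.33 in the Thy step and by 0.85 in the 6C3 step among CD105- cells, neither called (limma adjusted p = 0.315 and 0.0638). The 6C3 call of Ntn4 was also lost with a common median only (1.20, limma adjusted p = 0.0969) and with arrays grouped by title (1.23, 0.343). Ntn5 changed by 1.09 ± 0.27 in the Thy step of CD105- cells (limma adjusted p = 0.0124), with means of 7.24 ± 0.39 in Thy+ and 6.15 ± 0.24 in Thy- cells (SD, n = 3), and by 0.89 without the array in doubt (limma adjusted p = 0.0594). Ntn3 was called nowhere.

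Of 8 ephrins only Efna5, a lipid-anchored ligand of EphA receptors, was called. It had 9.75, 9.75 and 10.49 in Thy+6C3-CD105- cells and 8.84, 9.30 and 8.06 in Thy-6C3-CD105- cells. Among CD105+ cells Efna5 had 10.20, 9.82 and 10.09 in Thy+ cells and 9.15, 9.22 and 9.38 in Thy- cells. All 6 Thy+ arrays lay above the 12 Thy- arrays, whose highest value was 9.46. The Thy step was 1.26 ± 0.33 among CD105- cells (limma adjusted p = 0.0153) and 0.79 ± 0.33 among CD105+ cells (limma adjusted p = 0.216). The call among CD105- cells was lost without the array in doubt (1.02, limma adjusted p = 0.0726) or Thy-6C3-CD105- replicate 3 (0.92, 0.0893), and with a common median only (0.70, 0.101). The 7 other ephrins had population means spanning 0.16 to 0.90.

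**Figure D3:**
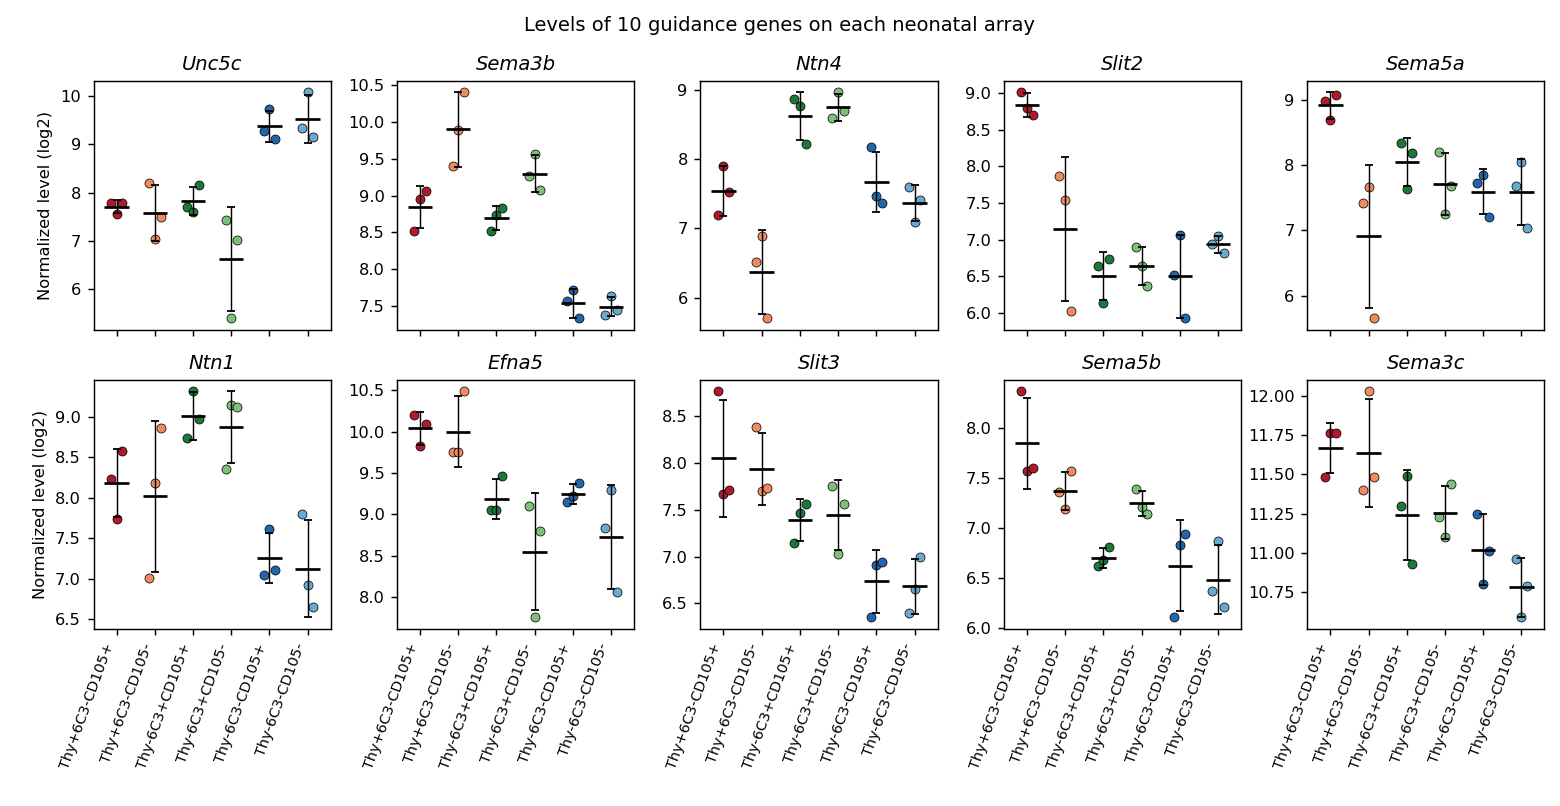
Points are the normalized log2 levels of 10 guidance genes on the 18 neonatal arrays, by population, with the mean as a bar and the SD of 3 arrays as error bars; vertical scales differ between panels. Slit2 sits at 8.70 to 9.02 in Thy+6C3-CD105+ cells, Unc5c at 9.11 to 10.08 in both Thy-6C3- populations, and the lowest Slit2, Sema5a and Ntn4 points in Thy+6C3-CD105- cells belong to replicate 3.

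Among the receptors, Unc5c differed most. Unc5c is a netrin receptor that mediates repulsion. In Thy+ cells it had 7.79, 7.56 and 7.78 with CD105 and 8.19, 7.04 and 7.49 without it. In 6C3+ cells it had 7.71, 7.60 and 8.16 with CD105 and 7.44, 5.40 and 7.02 without it. In Thy-6C3- cells it had 9.28, 9.72 and 9.11 with CD105 and 9.34, 10.08 and 9.15 without it. Each of the 6 Thy-6C3- arrays therefore lay above each of the 12 Thy+ or 6C3+ arrays, the reverse of Sema3b. Unc5c fell in the Thy step by 1.66 on the log2 scale among CD105+ cells (SE 0.41, limma adjusted p = 0.0177) and by 1.95 among CD105- cells (SE 0.41, limma adjusted p = 0.00422). In the 6C3 step it fell by 2.91 among CD105- cells (SE 0.41, limma adjusted p = 0.000378), and the change of -1.55 ± 0.41 among CD105+ cells did not pass (limma adjusted p = 0.0864). The first call was lost without replicate 2 of Thy-6C3-CD105+ (-1.48, limma adjusted p = 0.0806) and replicate 2 or 3 of Thy+6C3-CD105+ (-1.58 and -1.69, 0.075 and 0.0553), and the 6C3 call with arrays grouped by title (-2.08, limma adjusted p = 0.0861). Without the array in doubt the second Thy change was -1.91 (limma adjusted p = 0.0146). A second Unc5c probe set was lower in all 4 steps, by -1.82 to -2.67, with limma adjusted p over all probe sets of at most 0.00261.

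Unc5d, another Unc5 receptor, was at the low end of the array's range but higher in Thy+6C3-CD105+ cells than in any other population. It had 4.30, 4.62 and 4.37 there, 3.77, 3.61 and 3.87 in Thy+6C3-CD105- cells, and between 3.43 and 4.00 on the 12 Thy- arrays. Unc5d rose among CD105+ cells by 0.69 ± 0.13 in the Thy step (limma adjusted p = 0.00283), against 3.94, 3.71 and 3.57 in Thy- cells. In the CD105 step of Thy+6C3- cells it rose by 0.68 ± 0.13 (limma adjusted p = 0.0172), and by 0.74 without the array in doubt (limma adjusted p = 0.0331). The CD105 call was lost without Thy+6C3-CD105+ replicate 2 (0.58, limma adjusted p = 0.136) or 3 (0.71, 0.0594) and Thy+6C3-CD105- replicate 2 (0.61, 0.0583), and as deposited (0.54, 0.0782). Unc5a changed by 0.91 ± 0.30 in the Thy step of CD105- cells (limma adjusted p = 0.0425), with means of 7.04 ± 0.21 in Thy+ and 6.13 ± 0.06 in Thy- cells, and lost its call without 9 of 18 arrays in turn, the array in doubt among them (0.88, limma adjusted p = 0.108), and with a common median only (0.68, 0.0692). Unc5b was level, with population means of 8.72 to 8.94, a span of 0.22, and was called nowhere.

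Plexins are the receptors of semaphorins, and Plxnc1, a receptor of Sema7a, was the 1 plexin called by the F-test. It had 6.54, 6.60 and 6.69 in Thy+6C3-CD105+ cells, 5.56, 5.24 and 5.05 in Thy+6C3-CD105- cells and 5.25, 5.93 and 4.58 in Thy-6C3-CD105+ cells. The first 3 values lay above all other neonatal arrays. Plxnc1 rose by 1.36 ± 0.25 in the Thy step of CD105+ cells (limma adjusted p = 0.0018) and by 1.32 ± 0.25 in the CD105 step of Thy+6C3- cells (limma adjusted p = 0.0121). The CD105 call was lost without the array in doubt (1.20, limma adjusted p = 0.0775) and without Thy+6C3-CD105+ replicate 2 or 3 (1.33 and 1.28, 0.0592 and 0.0748). Of the 5 remaining Plxnc1 probe sets, 1 rose in the Thy step by 0.85 (limma adjusted p over all probe sets = 0.0467) and the other 4 changed by -0.27 to 0.03. With the mean of the probe sets Plxnc1 changed by 0.25 in the Thy and 0.15 in the CD105 step, neither called (limma adjusted p = 0.106 and 0.297), and its F-test call was lost (0.172). Sema7a itself had population means of 6.62 to 7.32 and was called nowhere.

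Plxna4, a partner of neuropilins for class 3 semaphorins, changed by 1.05 ± 0.30 in the Thy step of CD105- cells (limma adjusted p = 0.0228), with means of 7.49 ± 0.61 in Thy+ and 6.43 ± 0.20 in Thy- cells (SD, n = 3). Its call was lost without the array in doubt (0.71, limma adjusted p = 0.117) and without Thy-6C3-CD105- replicate 3 (0.94, 0.0921). With the mean of the probe sets the change of Plxna4 was 0.43 (limma adjusted p = 0.0933). The other 7 plexins had population means spanning 0.24 to 0.81. Plxnb2, a widely expressed plexin, had means of 9.96 to 10.33 in the 6 populations. Plxnd1, the receptor of Sema3e, had 7.09 ± 0.25 in Thy+6C3-CD105+ cells and 6.48 ± 0.37 in Thy-6C3-CD105+ cells (SD, n = 3) and was not called.

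Robo receptors bind Slits. Robo1 had 8.62, 8.46 and 8.61 in Thy+6C3-CD105+ cells and 7.79, 7.89 and 5.40 in Thy+6C3-CD105- cells. On the 12 Thy- arrays it lay between 8.09 and 8.94. Every Thy+6C3-CD105- array was thus below all others, replicate 3 by more than the rest. With all arrays the Thy step among CD105- cells was -1.35 ± 0.43 (limma adjusted p = 0.0386) and -0.54 without the array in doubt (limma adjusted p = 0.0822). The call was also lost without each Thy-6C3-CD105- array (-1.22 to -1.49, limma adjusted p = 0.0693 to 0.115) and without Thy-6C3+CD105+ replicate 2 (0.0501), and with the mean of the probe sets (-0.61, limma adjusted p = 0.0522). Robo2, Robo3 and Robo4 had no population mean above the median gene and were called nowhere. Robo2 on the Thy+6C3-CD105+ arrays averaged 4.55 ± 1.04, against 3.54 ± 0.33 in Thy-6C3-CD105+ cells (SD, n = 3).

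Eph receptors are the receptor tyrosine kinases of ephrins, and none of the 13 measured, which leave out Ephb2, was called by the F-test. Ephb3 had 9.17, 8.53 and 9.36 in Thy+6C3-CD105- cells and 7.78, 8.27 and 8.10 in Thy-6C3-CD105- cells, a difference of 0.97 ± 0.24 (limma adjusted p = 0.0125). The Ephb3 call was lost without the array in doubt (0.80, limma adjusted p = 0.0529) and without Thy-6C3-CD105- replicate 1 (0.83, 0.0562). As deposited the change of Ephb3 was 0.57 and with a common median only 0.43, neither called (limma adjusted p = 0.0896 and 0.179). Epha1 had 5.85, 6.21 and 6.81 in Thy+ and 5.32, 5.63 and 5.40 in Thy- cells of the same step, a change of 0.84 ± 0.25 (limma adjusted p = 0.0317). Its call was lost without the array in doubt (0.58, limma adjusted p = 0.158) and Thy-6C3-CD105- replicate 1 (0.77, 0.0979) or 3 (0.81, 0.0945). The other 11 Eph receptors had population means spanning 0.24 to 1.71. Among them Epha3 averaged 8.89 ± 0.10 in Thy+6C3-CD105+ cells and 7.68 ± 0.51 in Thy-6C3-CD105+ cells (SD, n = 3), a change of 1.21 ± 0.51 (limma adjusted p = 0.223). Epha4, which binds ephrins of both classes, averaged 8.47 ± 0.97 in Thy+6C3-CD105- cells and 7.05 ± 0.67 in Thy-6C3-CD105- cells, a difference of 1.42 ± 0.53 (limma adjusted p = 0.0684) that was 0.91 without the array in doubt (limma adjusted p = 0.296).

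The means of the 2 Thy steps share no arrays, nor do those of both 6C3 steps. All steps share the same estimate of the spread, however. Each Thy step also subtracts the same Thy-6C3- arrays as the 6C3 step of the same CD105 state. Calls of a gene in several steps are therefore not independent. Sema3b, Slit3 and Sema5b were called higher and Unc5c lower in both Thy steps. Sema3b and Ntn1 were called higher in both 6C3 steps. Whether a change differed with CD105 was tested as an interaction. No guidance gene passed for Thy by CD105 in 6C3- cells, beside 0.269% of all genes, and 15 had an unadjusted p under 0.05. The smallest limma adjusted p was 0.0882, for Plxnc1. None passed for 6C3 by CD105 in Thy- cells, beside 0% of all genes, and 1 had an unadjusted p under 0.05. A call of Slit2 or Plxnc1 in the CD105+ cells alone does therefore not show that the Thy change differed between CD105+ and CD105- cells.

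Leaving out Thy+6C3-CD105- replicate 3 lost more calls than it kept in both steps that compare this population. Among CD105- cells Sema3b, Sema3c, Sema6c, Slit3 and Unc5c remained called, Sema3g was added, and 12 calls were lost. In the CD105 step of Thy+6C3- cells Unc5d remained. With the arrays of the compared populations only, Sema3b, Sema3f, Sema6c, Slit3 and Unc5c were the 5 genes called in the Thy step among CD105- cells. The Thy step among CD105+ cells and both 6C3 steps use none of the Thy+6C3-CD105- arrays for their means. Across the 18 fits that leave out 1 array and the other alternatives, 7 of the 35 calls in steps were kept in all, those of Sema3b and Slit2 in the Thy step among CD105+ cells, of Sema3b, Sema6c, Slit3 and Unc5c in the Thy step among CD105- cells, and of Sema3b in the 6C3 step among CD105- cells. No call reversed its direction.

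**Figure D4:**
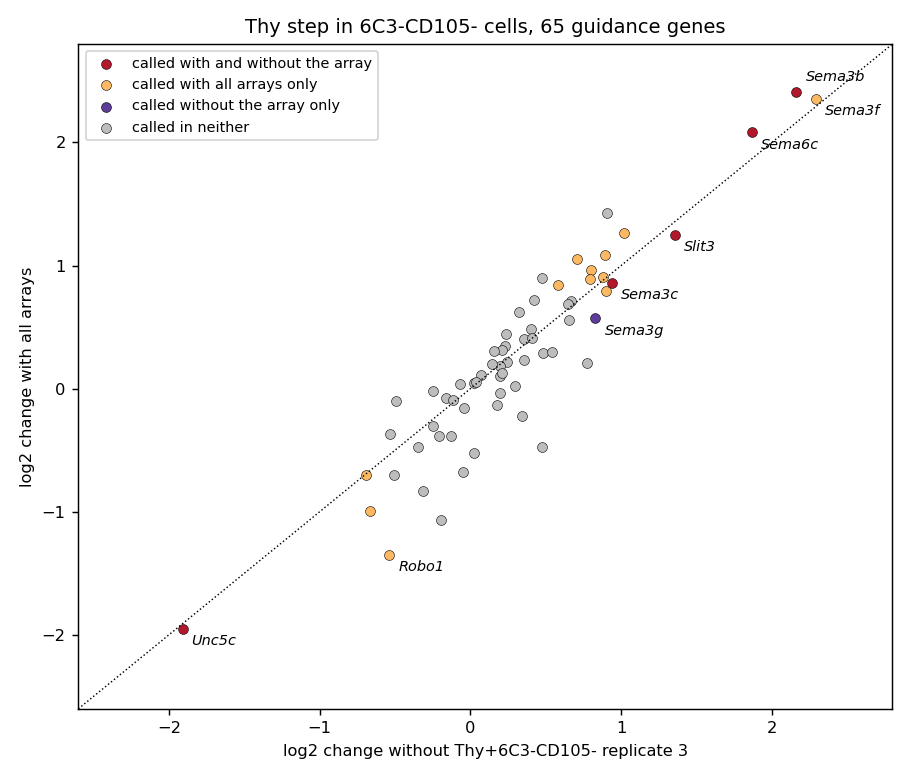
Each point is a guidance gene in the Thy step among 6C3-CD105- cells, its log2 change without Thy+6C3-CD105- replicate 3 on the horizontal axis and with all arrays on the vertical axis, coloured by where limma called it; the dotted line marks equal values. Sema3b, Sema6c, Slit3, Sema3c and Unc5c are called both ways, Sema3g only without the array, and Robo1 is at -0.54 without the array and -1.35 with it.

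The 11 arrays of high poly-A signal hold replicates 2 and 3 of Thy+6C3-CD105+ cells, the closest pair of replicates over all genes (r = 0.995). Within these 11 arrays, 3 of the 7 calls of the Thy step among CD105+ cells held, Slit2 at 2.53 (limma adjusted p = 0.0142), Plxnc1 at 1.73 (0.00868) and Sema3b at 1.56 (0.00922). The other 4 kept their direction without passing, Sema5b at 1.06, Slit3 at 1.04, Unc5c at -1.53 and Unc5d at 0.74 (limma adjusted p = 0.118, 0.107, 0.122 and 0.0899). In the 6C3 step among CD105+ cells Ntn1 changed by 1.95 and Sema3b by 1.19 within this set, neither passing (limma adjusted p = 0.0555 and 0.115). In the CD105 step of Thy+6C3- cells the changes within it were 2.23 for Sema5a, 1.97 for Slit2, 1.5 for Plxnc1, 0.75 for Unc5d and -1.15 for Sema3b, none passing (limma adjusted p = 0.0907 to 0.177). The 3 steps that use Thy-6C3-CD105- cells had a single array of that population in this set, and the low set held only 1 array of most populations, so no values are given there.

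A list of co-receptors and further ligands or binding partners of the guidance families was also read, and 21 of 21 listed were measured. Not every gene on it is a co-receptor of a guidance ligand, so its counts are no result about signalling. Among CD105+ cells 5 rose and 0 fell in the Thy step, beside 4.03% of all genes higher and 2.63% lower. Chl1, an adhesion molecule that partners neuropilin 1, rose by 2.05 ± 0.34 (limma adjusted p = 0.000704), and Met, a receptor kinase that can couple to B plexins, by 1.93 ± 0.43 (limma adjusted p = 0.00832). Nrp1, the neuropilin that binds Sema3a, averaged 11.10 in Thy+6C3-CD105+ cells and 9.38 in Thy-6C3-CD105+ cells, a difference of 1.72 ± 0.47 (limma adjusted p = 0.033). Among CD105- cells 7 rose and 0 fell in that step, beside 10.5% of all genes higher and 7.45% lower, and 4 rose without the array in doubt. Met changed there by 1.71 ± 0.43 (limma adjusted p = 0.0126) and Plxdc1, a plexin domain protein, by 1.44 ± 0.28 (limma adjusted p = 0.00251). Without the array in doubt these changes were 2.10 for Met and 1.27 for Plxdc1 (limma adjusted p = 0.00509 and 0.0121). Dcc, the netrin receptor, averaged 7.85 in Thy+ and 6.45 in Thy- cells of that step, a change of 1.40 ± 0.34 (limma adjusted p = 0.0102) that was 1.15 without that array and not called (limma adjusted p = 0.0508). The 6C3 steps called 1 and 0 of the 21, beside 1.36% and 2.74% of all genes. The 1 was Plxdc1 among CD105+ cells (1.22 ± 0.28, limma adjusted p = 0.0375). The CD105 step of Thy+6C3- cells called 1, beside 1.02% of all genes. That was the integrin gene Itga7 (1.51 ± 0.27, limma adjusted p = 0.00669, and 1.36 and 0.048 without the array in doubt). By the F-test 6 of the 21 were called, beside 10.1% of all genes, Nrp2 and Neo1, which encode neuropilin 2 and neogenin, not among them (limma adjusted p = 0.594 and 0.484).

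Effectors carry guidance signals to the cytoskeleton, and 39 of 42 listed were measured. In the Thy step among CD105+ cells 7 rose and 1 fell, beside 4.03% of all genes higher and 2.63% lower. Dpysl3, a collapsin response mediator protein, rose by 1.54 ± 0.15 (limma adjusted p = 4.32e-06), and Ablim1, an actin-binding LIM protein, by 1.68 ± 0.19 (limma adjusted p = 1.28e-05). Rap1gap, which switches off Rap1, fell by 1.08 on the log2 scale (limma adjusted p = 0.000768). Among CD105- cells 10 rose and 7 fell, beside 10.5% of all genes higher and 7.45% lower, with Ablim1 at 1.63, Dpysl3 at 1.54, Tiam1, an exchange factor of Rac, at -1.55 and Rap1gap at -1.16. Without the array in doubt 4 rose and 4 fell there, with Ablim1 at 1.74, Dpysl3 at 1.52, Tiam1 at -1.40 and Rap1gap at -1.25, all still called. In the 6C3 step 1 rose and 2 fell among CD105+ cells, beside 0.561% of all genes higher and 0.797% lower. Among CD105- cells 3 rose and 4 fell, beside 1.24% higher and 1.5% lower. Dpysl3 was at 0.97 and 1.40 and Rap1gap at -1.06 and -1.34 in these steps. The CD105 steps called 0 effectors, beside 0.0055% of all genes in Thy-6C3-, 1.02% in Thy+6C3- and 0% in Thy-6C3+ cells. By the F-test 10 of the 39 were called, beside 10.1% of all genes.

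Markers of other cell types moved with the same populations, and their part in the guidance results was not tested. Of all genes 4.03% rose and 2.63% fell in the Thy step among CD105+ cells, and 10.5% rose and 7.45% fell among CD105- cells. In the 6C3 step 0.797% of all genes fell among CD105+ and 1.5% among CD105- cells. On the 6 Thy-6C3- arrays, where Unc5c was high and Sema3b low, the mean level of 8 chondrocyte genes was 12.23 to 12.48. That mean was 8.69 to 9.49 on the Thy+ and 9.49 to 10.23 on the 6C3+ arrays. All 8 fell in both Thy steps. The 3 hypertrophic chondrocyte genes averaged 4.65 to 5.24 on the Thy+ and 4.69 to 5.06 on the 6C3+ arrays, against 7.64 to 8.96 on the Thy-6C3- arrays, and all 3 fell in both Thy and both 6C3 steps. Of the osteoblast genes 4 of 6 listed were measured, and 2 of 4 fell in the Thy step of CD105+ cells and 4 of 4 in that of CD105- cells. Their averages were 4.27 to 5.36 on the Thy+, 5.41 to 6.85 on the 6C3+ and 6.80 to 8.41 on the Thy-6C3- arrays. Immediate early genes, which cells switch on soon after a stimulus, moved along the same line, and 6 of 7 fell with Thy among CD105+ cells and 7 of 7 among CD105- cells, with median changes of -1.33 and -1.64. The 7 averaged 10.09 to 10.79 on the Thy+ and 10.47 to 11.65 on the 6C3+ arrays, against 11.96 to 12.48 on the Thy-6C3- arrays. Of 5 proliferation genes 1 rose in the Thy step of CD105+ cells and 4 in that of CD105- cells. Without the array in doubt the counts of chondrocyte, hypertrophic, osteoblast, immediate early, proliferation and keratinocyte genes called in the Thy step among CD105- cells were the same. Where Slit2, Plxnc1 and Unc5d were high, the mean of 9 pericyte and smooth muscle genes was 10.43 to 10.61 on the Thy+6C3-CD105+ arrays and 8.31 to 9.06 on the other 15, and 8 of the 9 rose and 1 fell in the Thy step among CD105+ cells. The 7 tendon and fibrous genes averaged 10.60 to 11.12 on the Thy+ arrays, 9.57 to 10.17 on the 6C3+ arrays and 8.75 to 9.17 on the Thy-6C3- arrays. Sema3f, Sema6c and Epha1 had their highest population means in Thy+6C3-CD105- cells. On those arrays the mean of 4 keratinocyte genes was 7.17 to 8.03, against 5.70 to 6.38 on the other 15. In the Thy step among CD105- cells 3 of the 4 rose. The highest neonatal Sema3f value, 12.60, was however on a Thy-6C3+CD105- array. Krt14, a keratin of basal epidermis, averaged 6.86 ± 0.74 in Thy+6C3-CD105- cells and 4.77 ± 0.12 in Thy-6C3-CD105- cells (SD, n = 3).

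Markers of nerve and vessel cells, in which guidance genes are also used, were low. Of all genes 4.03% rose in the Thy step of CD105+ cells. In that of CD105- cells 10.5% rose and 7.45% fell, so a count of 1 there in lists this short is no result about a cell type. The CD105 step of Thy+6C3- cells had 0.824% of all genes higher and 0.192% lower. The 5 neuron genes averaged 4.61 to 5.06 on the Thy+ arrays and 4.18 to 4.71 on the Thy- arrays, and 2 of 5 and 1 of 5 rose in the Thy steps of CD105+ and CD105- cells. Of the Schwann cell genes 6 of 8 listed were measured and averaged 5.95 to 6.69 on the Thy+ and 5.45 to 6.07 on the Thy- arrays. Of these 1 rose in the Thy step among CD105+ cells, and 1 rose and 1 fell among CD105- cells. The 8 endothelial genes averaged 5.61 to 6.06 on the Thy+ and 5.11 to 5.63 on the Thy- arrays, with population means of Cdh5 between 5.06 and 5.29. Of these genes 3 of 8 rose in the Thy step of CD105+ cells, 1 of 8 in that of CD105- cells and 1 of 8 in the CD105 step of Thy+6C3- cells, the last being Esam at 2.04 ± 0.18 (limma adjusted p = 8.07e-06; 2.06 without the array in doubt, 4.42e-05), a junction protein that also rose by 2.32 ± 0.18 with Thy among CD105+ cells (limma adjusted p = 3.22e-07). The 5 myeloid genes averaged 5.53 to 5.88 on the Thy+6C3-CD105+ arrays, 6.15 to 6.74 on the Thy+6C3-CD105- arrays and 5.45 to 6.43 on the Thy- arrays. In the Thy step of CD105- cells 2 of 5 rose, or 1 without the array in doubt, and 1 of 5 fell with CD105 in Thy+6C3- cells, or 0 without it. All these summed levels lay below the median gene mean of 6.76.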

How the data were processed

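The deposited table holds log2 expression values of 45101 probe sets on 19 arrays, and, per the labels, RNA was amplified in several rounds and the arrays were scanned with GCOS. The steps by which the authors turned scans into log2 values are not given in the sources used here. Array medians ran from 5.60 to 6.02, so arrays were quantile normalized over all 19. Each gene was read from its brightest probe set by mean over the 18 neonatal arrays, among the 34945 with 1 symbol, while 932 with several symbols and 9160 with none were not used. The guidance genes have 140 such probe sets, and 23 genes have only 1. Arrays give no counts, so their number limits the precision.

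limma 3.58.1 in R 4.3.3 fitted 1 mean per population (12 residual and 5.38 prior degrees of freedom) with trended eBayes, 7 steps, 2 interactions and a moderated F-test, two-sided, with Benjamini-Hochberg adjustment over 18193 genes per comparison. The members, gene lists, tests and naming rule were chosen with earlier results of these data known. Values per array are given for members called by the F-test with a population mean above the median gene mean, and for the largest call of each step and direction. Sema3g, Plxnc1 and Unc5d, which the F-test called below that mean, and Sema3f, Sema6c, Ephb3, Epha1 and Robo1 also get values per array, chosen after their values were seen, and so were Esam, the probe set comparisons and Sema3e, Sema7a, Plxnb2, Plxnd1, Robo2, Epha3 and Epha4. Replicate numbers were not used to pair arrays, since same-numbered arrays had a mean correlation of deviations of 0.0126 over 45 pairs, and 19 pairs were over 0.1. Some pairs of arrays of different populations had correlated deviations, of either sign, so independence cannot be assumed, and it was not tested. Thy-6C3+CD105+ replicate 3, of low poly-A signal, had r = 0.633 with Thy+6C3-CD105+ replicate 1, also low, and -0.653 with Thy-6C3-CD105+ replicate 1, of high signal. The latter had r = -0.555 with Thy-6C3+CD105- replicate 3, also high. The simulation below leaves such sharing out. On simulated arrays with independent noise, the 7 steps recovered 92.2% to 96.9% of log2 changes of 2 and 39.3% to 61.9% of log2 changes of 1, with 4 to 13 false calls per step. Promoter windows are RefSeq's, and figures and counts used Python 3.11.15, pandas 2.3.3, numpy 2.4.6 and matplotlib 3.10.9. The array labelled adult entered no test.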

Additional observations from a re-analysis of the deposited data

Results flagged for a closer look

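Epha1, an Eph receptor below the median gene, changed in opposite directions with CD105 in Thy+6C3- and Thy-6C3- cells, without overlap between the groups of either step. In Thy+6C3- cells it had 5.73, 5.43 and 5.49 with CD105, against 5.85, 6.21 and 6.81 without it, a change of -0.74, or -0.48 without Thy+6C3-CD105- replicate 3, which had the 6.81 (limma adjusted p = 0.543). In Thy-6C3- cells Epha1 had 5.85, 5.66 and 5.99 with CD105, against 5.32, 5.63 and 5.40 without it, a change of 0.39. Neither change was called, and the interaction that tests the difference did not pass (limma adjusted p = 0.221).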

How the results depend on the processing

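Counts of called guidance genes in the F-test, in the CD105 steps of Thy-6C3- and Thy-6C3+ cells and in the 6C3 by CD105 interaction stayed within 1.5 times under every alternative run. The causes of the moves below were not tested, and counts over all genes are not set beside them. The Thy step among 6C3-CD105+ cells (7 calls) gave 4 within the high poly-A arrays, 13 with the compared populations only and 11 without the 2 arrays with the highest medians, an alternative chosen after seeing the data. The Thy step among 6C3-CD105- cells (17) gave 5 with the compared populations only. The 6C3 step among Thy-CD105+ cells (2) gave 1 with the mean of the probe sets, Unc5c, in place of Sema3b and Ntn1, and 0 within the high poly-A arrays. The 6C3 step among Thy-CD105- cells (4) gave 1 with arrays grouped by title. The CD105 step of Thy+6C3- cells (5) gave 1 over the brighter genes alone, 1 within the high poly-A arrays, 0 with the compared populations only and 2 without the 2 arrays with the highest medians. The Thy by CD105 interaction (0) gave 1, Slit2, as deposited and with a common median only.

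With each array left out in turn the F-test gave 10 to 17 calls, the Thy steps 6 to 10 among CD105+ and 6 to 20 among CD105- cells, and the 6C3 steps 0 to 3 among CD105+ and 2 to 6 among CD105- cells. The CD105 steps gave 0 to 0 in Thy-6C3-, 0 to 9 in Thy+6C3- and 0 to 0 in Thy-6C3+ cells, and the interactions 0 to 1 and 0 to 0. The Thy step among CD105- cells gave 9 and 8 calls without replicates 1 and 3 of Thy-6C3-CD105- and 6 without Thy+6C3-CD105- replicate 3. The CD105 step of Thy+6C3- cells gave 3 without Thy+6C3-CD105+ replicate 1, 0 without its replicate 2 or 3, 9 without Thy+6C3-CD105- replicate 1 and 1 without its replicate 3, and 3 without Thy-6C3-CD105- replicate 2 or Thy-6C3+CD105+ replicate 1. The 6C3 step among CD105+ cells gave 0 without Thy-6C3-CD105+ replicate 1 or 3 or Thy-6C3+CD105+ replicate 2 or 3, and 1 without Thy-6C3+CD105+ replicate 1. The Thy by CD105 interaction called Plxnc1 without Thy-6C3-CD105+ replicate 2, Robo2 without Thy+6C3-CD105+ replicate 1, Slit2 without Thy+6C3-CD105- replicate 1 and Sema6c without Thy-6C3+CD105- replicate 3. The 6C3 step among CD105- cells gave 2 without replicate 2 of either population. Shares of all genes called are not set beside these leave-out counts, so the counts cannot show a move particular to guidance genes.

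With the replicate block, the F-test called 15 genes, the Thy steps 9 and 19, the 6C3 steps 2 and 4, the CD105 steps 0, 5 and 0 and the interactions 0 and 0, and 8 of 18 arrays correlated best with their own number. The share of all genes called with the block is not given, so its counts cannot be read as particular to guidance genes either. Of the 48 calls 15 held under every alternative and 0 reversed. Within the high poly-A arrays no fit was made for steps with Thy-6C3-CD105- cells, where a single array was left. Dim genes are limited by signal over background.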

Other observations

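The array labelled adult Thy+6C3+CD105+ cells, whose source label names sternum and ear and whose tissue label names limbs, entered no comparison, and its values have no replicate. How many of all genes left the range of the neonatal arrays was not counted, so the counts that follow cannot be called particular to guidance genes. Of the 65 guidance genes 42 lay within the range of the 18 neonatal arrays, 19 below it and 4 above it. Those above were Efnb1 at 9.99 (neonatal arrays up to 9.08), Ntn4 at 9.96 (up to 8.97), Sema3g at 6.74 (up to 5.77) and Sema4g at 6.55 (up to 6.50). Sema3d, a secreted semaphorin, was at 5.91 on the adult array and at 8.63 to 10.51 on the neonatal arrays. Sema3a was at 5.25, against 7.15 to 8.95 on the neonatal arrays, and Ntn1 at 5.46, against 6.65 to 9.32. Of the 4 netrins, Ntn1 thus lay below and Ntn4 above every neonatal array. None of the 6 neonatal populations carries both Thy and 6C3, so age, the tissue of origin and the sorted antigens cannot be told apart here.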
